A study of Homo sapiens with 12 samples.

Results

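The expression of 10 genes for inflammatory chemokines and interleukins was followed in SNU308 cells, a human gallbladder cancer line, after knockdown of CEACAM6. The genes were CXCL1, CXCL2, CXCL3, CXCL5, CXCL8, CXCL16, CCL20, IL1A, IL1B and IL6, which are 10 of the 60617 genes in the deposited tables. They were taken as a named list, in which CXCL2 was chosen by its measured difference in expression between both CEACAM6 siRNAs. The difference between the siRNAs is therefore given as a description without a p, and nothing is read from it, while the comparisons with control use the same samples. All 10 genes passed the expression filter, as did 17620 genes in all.

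The 12 samples fell into 3 groups of 4 replicates. The control cells received a non-targeting control siRNA (NTC), and the knockdown cells received siCEACAM6#2 or siCEACAM6#3. Each siRNA was used at 25 nM, and RNA was taken after 3 days. All groups were grown in the same serum-containing RPMI medium, the knockdown was transient, and the data cover this cell line alone. The total estimated count per sample lay between 21799476 and 22059456, and the mitochondrial share of the counts was 11.8% to 13.3% in NTC and siCEACAM6#2 samples but 12.5% to 15.3% in siCEACAM6#3 samples, with the highest share in replicate 2 of the latter. The part of this share in the results was not tested. CEACAM6, the siRNA target, was at 56.8% of its mean NTC level with siCEACAM6#2 and at 72.5% with siCEACAM6#3, so the knockdown was partial with both. The summed level of 7 epithelial markers was 7812 to 8885 TPM (a transcript level scaled for length and depth) across the samples. The leukocyte marker PTPRC was at 0 to 0.249 TPM and the summed level of the 8 leukocyte markers was 29.9 to 64.6 TPM, nearly all of it from CD68, while 4 of the 8 stayed under 1 TPM in every sample. In siCEACAM6#3 replicate 4, however, PTPRC had 20 estimated counts, CD3E had 9 and LYZ had 72.4, against at most 2.06, 4 and 10 in the other samples. CD14, ITGAM and CD68 did not stand apart there. CD14 had 8 counts, ITGAM 15 and CD68 1013, against up to 27, 24 and 1147 in other samples. CD79A had 8, the highest of the 12 samples, against up to 7 in the others, and MS4A1 had 1, as in another sample. The part of these markers in the results was not tested. Fibroblast markers summed to 2.52 to 4.65 TPM and endothelial markers to 1.57 to 2.91 TPM.

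Chemokines are small secreted proteins that guide the movement of leukocytes. CXCL1, CXCL2, CXCL3, CXCL5 and CXCL8 draw neutrophils through the receptor CXCR2, and CXCL8 also binds CXCR1. CXCL16 is made as a membrane protein that binds CXCR6 and can be shed, and CCL20 draws cells that carry CCR6. IL1A and IL1B are agonists of the receptor IL1R1, and IL6 signals through IL6R and IL6ST. Many of these genes are targets of the transcription factor NF-kB, and several of their mRNAs are short-lived. In bulk RNA, fewer cells that express a gene and less of its RNA per cell cannot be told apart.

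The CXCL genes other than CXCL16 lie together in GRCh38. CXCL8, CXCL1, CXCL5, CXCL3 and CXCL2 sit on chromosome 4 between 73740519 and 74099196, a stretch of 359 kb. IL1A (chromosome 2, 112773925 to 112784493) and IL1B (chromosome 2, 112829751 to 112836816) are 45.3 kb apart, and CCL20 lies on the same chromosome at 227805739 to 227817564. IL6 is on chromosome 7 at 22725884 to 22732002 and CXCL16 on chromosome 17 at 4733533 to 4739928. In the GENCODE annotation CXCL5, CXCL16 and IL6 overlap genes of the opposite strand, in the case of IL6 the antisense RNA IL6-AS1 and STEAP1B. The libraries are labelled strand-specific, but whether strand was used in counting is not given in the sources used here, so reads of such partners may not be separated.

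The promoters of the genes that lie in this cluster and of IL6 share a stretch of sequence, and these promoters are shown for that reason. In the RefSeq promoter sequences of GRCh38.p14, which run from 250 bases before to 50 bases after each start site, the NF-kB type motif GGANTTTCC was searched on both strands. It was present in the promoters of 6 of the 9 genes with an entry, namely CXCL1, CXCL2, CXCL3, CXCL5, CXCL8 and IL6, and in 1.64% of all 35116 promoters. The 99-base windows around the match follow in the direction of each gene. Capitals mark the match and, in CXCL8, a TATAAA motif. The windows are chr4:73869295-73869393 (plus strand) for CXCL1, chr4:74099194-74099292 (minus) for CXCL2, chr4:74038689-74038787 (minus) for CXCL3, chr4:73998689-73998787 (minus) for CXCL5, chr4:73740458-73740556 (plus) for CXCL8 and chr7:22727108-22727206 (plus) for IL6.
CXCL1: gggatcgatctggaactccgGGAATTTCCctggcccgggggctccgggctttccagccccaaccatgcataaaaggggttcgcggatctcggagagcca
CXCL2: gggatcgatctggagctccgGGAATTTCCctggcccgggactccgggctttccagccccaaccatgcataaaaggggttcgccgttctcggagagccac
CXCL3: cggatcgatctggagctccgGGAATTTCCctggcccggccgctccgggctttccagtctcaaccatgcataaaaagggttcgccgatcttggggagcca
CXCL5: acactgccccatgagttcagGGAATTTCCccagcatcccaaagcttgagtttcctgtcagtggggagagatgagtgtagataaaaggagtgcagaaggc
CXCL8: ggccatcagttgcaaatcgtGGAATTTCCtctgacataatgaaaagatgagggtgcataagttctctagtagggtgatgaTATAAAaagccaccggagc
IL6: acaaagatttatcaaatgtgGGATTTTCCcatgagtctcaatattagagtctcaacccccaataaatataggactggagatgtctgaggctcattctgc

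In these windows the CXCL chemokines carried the match GGAATTTCC and IL6 carried GGATTTTCC. The match began 72 bases before the start site in IL6, 77 in CXCL2, 78 in CXCL1 and CXCL3, 90 in CXCL5 and 91 in CXCL8. The AP-1 type motif TGANTCA was in the promoters of CXCL8 and IL1A and in 7.71% of all promoters. The C/EBP type motif TTGCNNAA was in those of CXCL2, IL1B and IL6 and in 10.5% of all promoters, and TATAAA was in those of CXCL8, CCL20 and IL1A and in 11.5% of all. A motif match describes the letters only.

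The CXCL genes are also alike within their transcripts, which matters because the estimated counts divide shared reads between genes. Of the 1425 distinct 31-base words in the transcripts of CXCL2, 23.6% occur in another gene, 200 of them in CXCL3 and 165 in CXCL1. The shared part was 13.7% for CXCL1 and 9.23% for CXCL3. It was 18% for CXCL5, mostly with an overlapping RNA of the opposite strand, 9.69% for IL6 and 9.44% for CXCL16. CCL20 shared 1.57% of its words, and CXCL8, IL1A and IL1B shared none.

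The first comparison asked how high each gene was in control cells. Levels are compared between genes in TPM only. IL1A was the highest at 113 ± 19.2 TPM (SD, n = 4), with samples from 90.9 to 136 TPM. It was followed by CXCL16 at 57.4 ± 4.47 TPM (SD, n = 4) and CXCL8 at 34.8 ± 1.68 TPM (SD, n = 4). The ranges of these 3 genes did not overlap with their neighbours in the order. IL1B at 26 ± 5.25 TPM (SD, n = 4) and CXCL1 at 25.3 ± 3.39 TPM (SD, n = 4) came next, and their ranges overlapped.

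A gap of 6.86-fold in mean TPM separated CXCL1 from CXCL5, which was at 3.7 ± 0.267 TPM (SD, n = 4). CCL20 (2.09 ± 0.591 TPM, SD, n = 4), CXCL3 (1.8 ± 0.363 TPM), IL6 (1.67 ± 0.418 TPM) and CXCL2 (1.53 ± 0.264 TPM) were the lowest. Each of these 4 genes overlapped in its range with the next, so their order is within the spread between replicates. The summed level of the 10 genes was 267 ± 27.4 TPM (SD, n = 4) in NTC, 310.2 ± 31.6 TPM (SD, n = 4) with siCEACAM6#2 and 301 ± 32.8 TPM (SD, n = 4) with siCEACAM6#3. IL1A alone made up 42.3%, 43.1% and 45.9% of these sums.

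**Figure D1:**
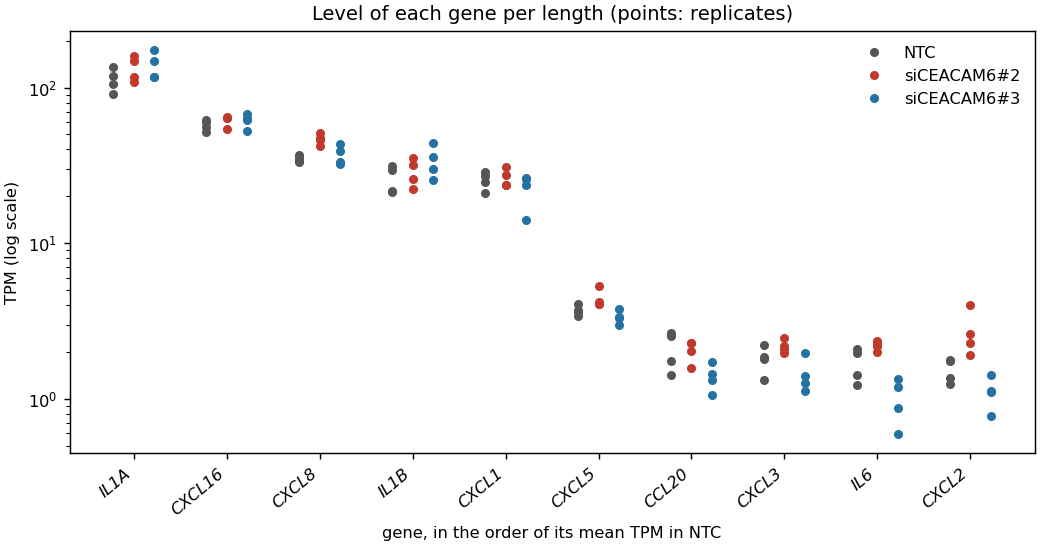
The y axis gives TPM on a log scale and the x axis the 10 genes in the order of their mean TPM in NTC, with a point per sample. IL1A is at 90.9 to 136 TPM in NTC, while CCL20, CXCL3, IL6 and CXCL2 are at 1.22 to 2.65 TPM in NTC and overlap with each other.

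The second comparison asked which of the genes differed from NTC with siCEACAM6#2. CXCL8 rose and was the only 1 of the 10 genes that passed the limma-voom test, at a Benjamini-Hochberg adjusted p under 0.05 over all tested genes. In the whole data set 221 of 17620 genes passed, or 1.25%, of which 108 were higher, or 0.613%. At an unadjusted p under 0.05 in limma-voom there were 4 of the 10 genes, CXCL2, CXCL5, CXCL8 and IL6, and 2400 of all tested genes. The log2 fold changes of all 10 genes were above 0 and their median was 0.27, beside 0.00017 over all tested genes. CXCL2, CXCL8 and IL6 had all siCEACAM6#2 samples above all NTC samples in CPM (the estimated count scaled to the library size used in the test), and this was the case in 5.34% of the tested genes. None of the 10 had all siCEACAM6#2 samples below NTC, as 5.42% of the tested genes did. CXCL2 was chosen by its difference between the siRNAs, which uses these same siCEACAM6#2 samples. Its part in the signs, the median, the count by unadjusted p and the count without overlap is therefore not independent of the choice, and nothing is read from it.

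With siCEACAM6#3 the picture was mixed. None of the 10 genes passed the limma-voom test, where 12 of 17620 genes passed in all, or 0.0681%. At an unadjusted p under 0.05 there were 3 of the 10 genes, IL1A, IL1B and IL6, and 2199 of all tested genes. The edgeR quasi-likelihood test also called none of the 10, and DESeq2 called none of the 6 for which it gave an adjusted p (all but CXCL2, CXCL3, CCL20 and IL6). The log2 fold changes were above 0 for 4 genes and below 0 for 6, with a median of -0.09 beside -0.0032 over all tested genes. IL6 had all siCEACAM6#3 samples below all NTC samples in CPM, which held for 3.29% of the tested genes, and none of the 10 had them all above, which held for 2.99%. Both comparisons use the same NTC samples, so they are not independent of each other.

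**Figure D2:**
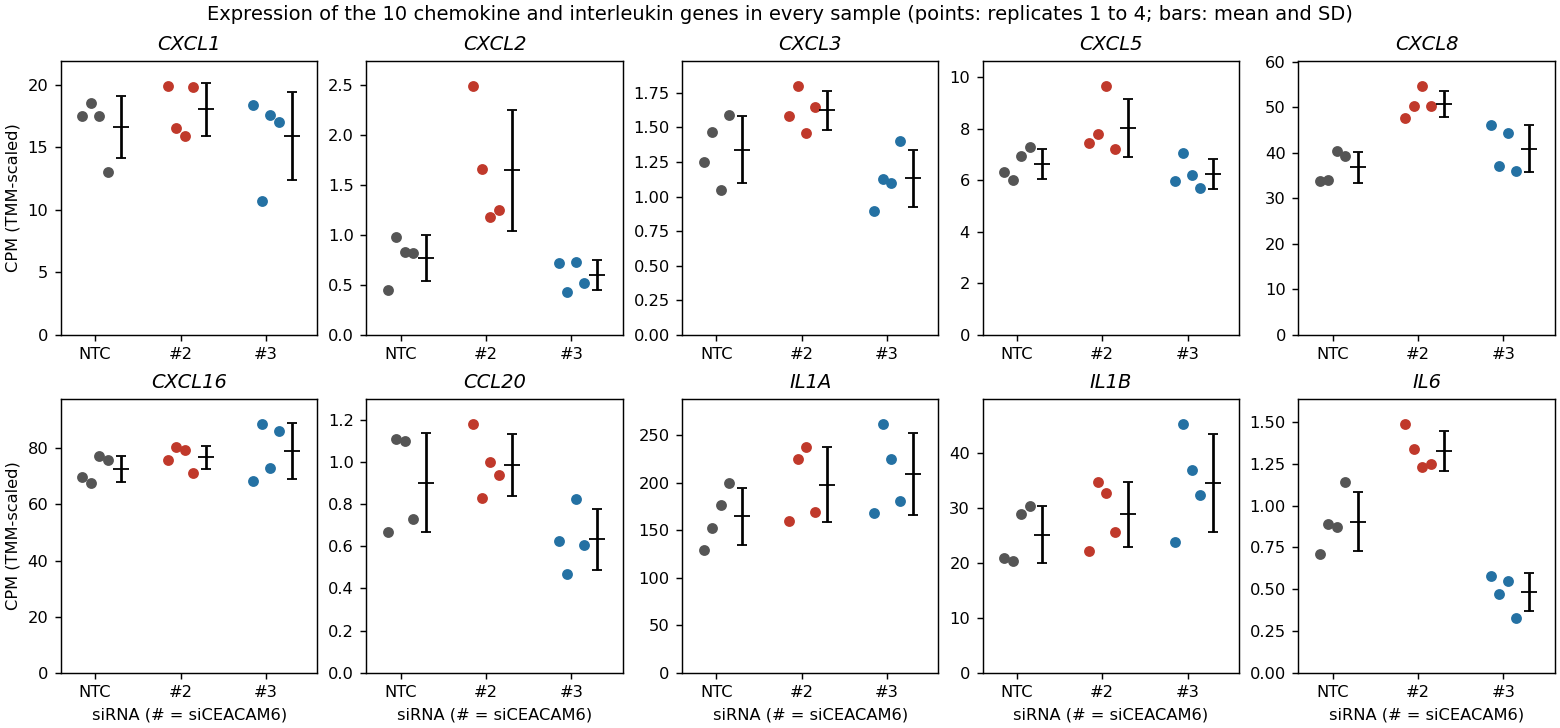
Each panel shows a gene, with TMM-scaled CPM on the y axis, a point per replicate and bars for the mean and SD of the 4 replicates. For CXCL8 the siCEACAM6#2 points (47.7 to 54.7 CPM) lie above all NTC points (33.8 to 40.3 CPM), and for IL6 the siCEACAM6#3 points lie lowest.

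CXCL8, a neutrophil chemokine, was at 33.8, 34.1, 40.3 and 39.2 CPM in the NTC samples. With siCEACAM6#2 it was at 47.7, 50.4, 54.7 and 50.3 CPM, and with siCEACAM6#3 at 46.2, 37.1, 44.3 and 35.9 CPM. All siCEACAM6#2 samples lay above NTC, while the siCEACAM6#3 samples spread from within the NTC range to above it. The means were 36.9 ± 3.38, 50.8 ± 2.89 and 40.9 ± 5.14 CPM (SD, n = 4 each). The log2 fold change with siCEACAM6#2 was 0.46 (SE 0.08, 95% confidence interval 0.29 to 0.64), a 1.38-fold rise, with a limma-voom adjusted p of 0.0143. The log2 fold change with siCEACAM6#3 was 0.15 (SE 0.09, 95% confidence interval -0.04 to 0.33), with a limma-voom adjusted p of 0.505.

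The CXCL8 call with siCEACAM6#2 held in 9 of 12 fits that each left out 1 sample. Omission of NTC replicate 1, of NTC replicate 2 or of siCEACAM6#2 replicate 3 ended it, and then the log2 fold change was 0.43 each time and the limma-voom adjusted p was 0.0605, 0.0578 and 0.0739. It was also lost in limma on log2(TPM + 1), where the fold change was 0.41 on that scale, the adjusted p was 0.103 and 5 genes passed in all. With edgeR and DESeq2 the call was kept.

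CXCL2, a CXCR2 ligand expressed at a low level, was at 0.446, 0.978, 0.825 and 0.82 CPM in NTC. With siCEACAM6#2 it reached 2.49, 1.66, 1.18 and 1.25 CPM, and with siCEACAM6#3 it was at 0.717, 0.423, 0.732 and 0.514 CPM. The siCEACAM6#2 samples lay above all others, and siCEACAM6#2 replicate 1 was the highest of all 12. The summed estimated counts behind these values were small, 68.5 in NTC (exact Poisson 95% interval 53.2 to 86.8), 145 with siCEACAM6#2 (122 to 170.1) and 52 with siCEACAM6#3 (38.8 to 68.2). These intervals cover counting error only.

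The log2 fold change of CXCL2 was 1.07 (SE 0.29, 95% confidence interval 0.46 to 1.68) with siCEACAM6#2, with a limma-voom adjusted p of 0.0862, which missed the threshold. The value for siCEACAM6#3 was -0.32 (SE 0.35, 95% confidence interval -1.06 to 0.41) with a limma-voom adjusted p of 0.738. Without siCEACAM6#2 replicate 1 the first of these was 0.86, and without NTC replicate 1, the lowest control, it was 0.84. With sample weights in limma-voom it was 0.94 and the adjusted p was 0.0342, in a fit that called 1120 genes in all, or 6.36%. The choice of CXCL2 by its difference between the siRNAs used these same siCEACAM6#2 samples. Nothing is therefore read from its p against NTC in any fit.

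The other CXCR2 ligands differed less from NTC, and none of them passed the test with either siRNA. CXCL1 was at 17.5, 18.5, 17.5 and 13 CPM in NTC and at 19.9, 16.5, 15.9 and 19.8 CPM with siCEACAM6#2. With siCEACAM6#3 it was at 18.4, 10.7, 17.6 and 17 CPM. Its groups overlapped, and the lowest sample was siCEACAM6#3 replicate 2. The log2 fold changes of CXCL1 were 0.12 (SE 0.15) and -0.08 (SE 0.15) with siCEACAM6#2 and siCEACAM6#3, and the latter was 0.10 without siCEACAM6#3 replicate 2.

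CXCL3 was at 1.25, 1.47, 1.05 and 1.59 CPM in NTC. It was at 1.58, 1.8, 1.46 and 1.65 CPM with siCEACAM6#2 and at 0.896, 1.13, 1.1 and 1.4 CPM with siCEACAM6#3. Both knockdown groups overlapped with NTC but not with each other. The log2 fold changes of CXCL3 were 0.28 (SE 0.18) with siCEACAM6#2 and -0.24 (SE 0.20) with siCEACAM6#3.

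CXCL5 was at 6.33, 6, 6.92 and 7.29 CPM in NTC, at 7.42, 7.79, 9.65 and 7.2 CPM with siCEACAM6#2 and at 5.96, 7.05, 6.18 and 5.7 CPM with siCEACAM6#3. The highest value was that of siCEACAM6#2 replicate 3. Its log2 fold changes were 0.27 (SE 0.11, limma-voom adjusted p = 0.294) and -0.09 (SE 0.12, limma-voom adjusted p = 0.785).

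Of the chemokines with other receptors, CXCL16 had the smallest differences. It was at 69.9, 67.6, 77.3 and 75.7 CPM in NTC, at 76, 80.6, 79.4 and 71.3 CPM with siCEACAM6#2 and at 68.2, 88.7, 73.1 and 86.1 CPM with siCEACAM6#3. All groups overlapped. The log2 fold changes were 0.08 (SE 0.08, 95% confidence interval -0.09 to 0.25) and 0.11 (SE 0.08, 95% confidence interval -0.05 to 0.28).

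CCL20 was at 0.669, 1.11, 1.1 and 0.729 CPM in NTC and at 1.18, 0.829, 1 and 0.939 CPM with siCEACAM6#2. With siCEACAM6#3 it was at 0.627, 0.47, 0.824 and 0.608 CPM, with a mean of 0.632 ± 0.146 CPM (SD, n = 4) beside 0.902 ± 0.236 CPM in NTC (SD, n = 4). All siCEACAM6#3 samples except replicate 3 were below the lowest NTC sample. The log2 fold change was -0.48 (SE 0.26, limma-voom adjusted p = 0.452) with siCEACAM6#3 and 0.15 (SE 0.23, limma-voom adjusted p = 0.842) with siCEACAM6#2. The latter turned to -0.01 in limma on log2(TPM + 1).

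IL1A and IL1B, the interleukin 1 agonists, had means above NTC with both siRNAs, without passing the test. IL1A was at 129.5, 152, 177 and 199.8 CPM in NTC, at 160.3, 225, 238 and 169 CPM with siCEACAM6#2 and at 168, 262, 225 and 181 CPM with siCEACAM6#3. IL1B was at 20.9, 20.3, 28.8 and 30.2 CPM in NTC, at 22.1, 34.7, 32.6 and 25.6 CPM with siCEACAM6#2 and at 23.8, 45.2, 36.8 and 32.3 CPM with siCEACAM6#3. In both genes all groups overlapped, and the highest of the 12 samples was siCEACAM6#3 replicate 2, the sample with the highest mitochondrial share, whose part in these values was not tested.

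The log2 fold changes of IL1A were 0.27 (SE 0.16, limma-voom adjusted p = 0.493) with siCEACAM6#2 and 0.34 (SE 0.16, limma-voom adjusted p = 0.387) with siCEACAM6#3. Those of IL1B were 0.20 (SE 0.19, limma-voom adjusted p = 0.712) and 0.45 (SE 0.18, limma-voom adjusted p = 0.334). Without siCEACAM6#3 replicate 2 the siCEACAM6#3 values were 0.22 for IL1A and 0.31 for IL1B. Both genes also had a high spread between replicates, with coefficients of variation of 18.5% to 25.9% within the groups, although their summed counts were 2216 or more in each group.

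IL6 was at 0.713, 0.889, 0.87 and 1.14 CPM in NTC. It was at 1.49, 1.34, 1.23 and 1.25 CPM with siCEACAM6#2, all above NTC, and at 0.582, 0.47, 0.549 and 0.327 CPM with siCEACAM6#3, all below NTC. The 3 groups thus had separate ranges in CPM, in opposite directions from the control. The same order, above NTC with siCEACAM6#2 and below with siCEACAM6#3 without overlap, was present in 11 of 17620 tested genes (0.0624%). Since the list was drawn up with the difference between the siRNAs in view, nothing is read from this share.

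The estimated counts of IL6 were small, with a sum of 80 in NTC (exact Poisson 95% interval 63.4 to 99.6), 117 with siCEACAM6#2 (96.8 to 140.2) and 42 with siCEACAM6#3 (30.3 to 56.8). Its log2 fold changes were 0.56 (SE 0.20, 95% confidence interval 0.13 to 0.99, limma-voom adjusted p = 0.22) and -0.88 (SE 0.25, 95% confidence interval -1.41 to -0.35, limma-voom adjusted p = 0.179). Neither passed the test. In TPM the NTC samples were at 1.22 to 2.08, those with siCEACAM6#2 at 1.99 to 2.37 and those with siCEACAM6#3 at 0.592 to 1.35, so on this scale both knockdown groups overlapped with NTC.

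**Figure D3:**
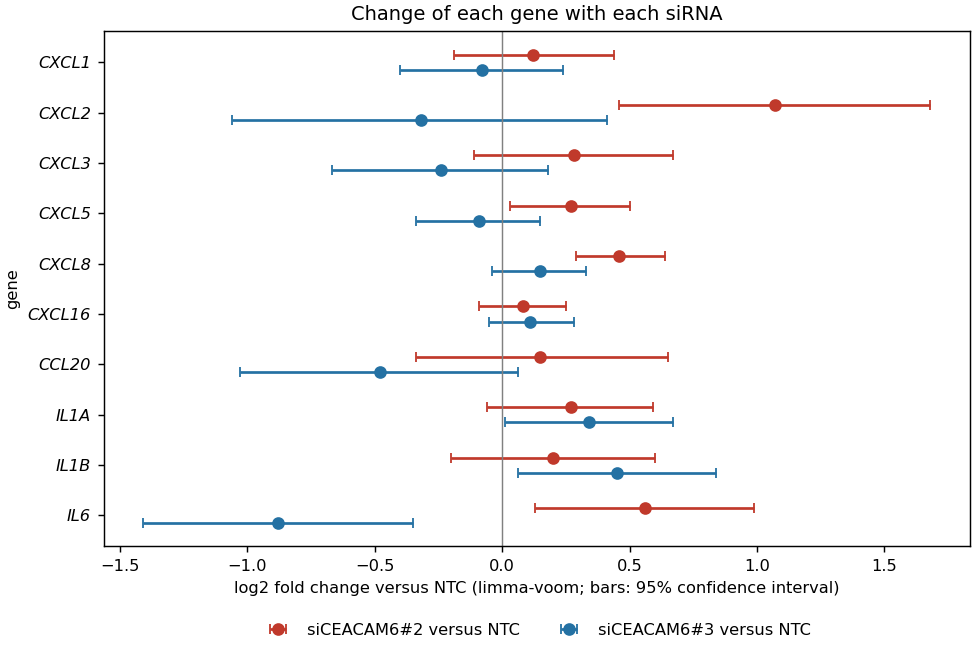
The x axis gives the log2 fold change versus NTC from limma-voom, with a point and a 95% confidence interval for each gene and siRNA. CXCL8 with siCEACAM6#2 (0.29 to 0.64) passed the test over all genes, and IL6 has an interval above 0 with siCEACAM6#2 (0.13 to 0.99) and below 0 with siCEACAM6#3 (-1.41 to -0.35) without passing it.

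The difference between both siRNAs, which had led to the choice of CXCL2, is described next. The mean of siCEACAM6#3 was below that of siCEACAM6#2 in 7 of the 10 genes, and not in CXCL16, IL1A and IL1B. The log2 difference (siCEACAM6#3 minus siCEACAM6#2) was -1.44 for IL6 and -1.40 for CXCL2, where siCEACAM6#3 was at 36.3% and 36.2% of the siCEACAM6#2 mean in CPM. It was -0.64 for CCL20, -0.53 for CXCL3, -0.36 for CXCL5, -0.32 for CXCL8 and -0.20 for CXCL1. It was 0.03 for CXCL16, 0.08 for IL1A and 0.25 for IL1B, and the sign of the first pair of these turned when single samples were left out.

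In CXCL2, CXCL3, CXCL5, CXCL8, CCL20 and IL6 all siCEACAM6#3 samples were below all siCEACAM6#2 samples in CPM, as in 3.34% of the tested genes, and none of the 10 had the opposite order. In TPM this held for 4 genes, since the ranges of CXCL8 and CCL20 overlapped on that scale. Over all genes 259 were past the limma-voom threshold in this contrast, or 1.47%. Without siCEACAM6#2 replicate 1 the log2 difference of CXCL2 was -1.18, and over all 12 samples left out in turn it ran from -1.53 to -1.18, while that of IL6 ran from -1.54 to -1.28.

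The samples differed in which genes were high. Counting each gene's highest and lowest of the 12 samples, siCEACAM6#2 samples held the highest value for 7 genes and the lowest for none. The share of all tested genes with this pattern is not given here, and CXCL2 was chosen by the gap between the siRNAs. Nothing is therefore read from this count. siCEACAM6#2 replicate 1 was highest for CXCL1, CXCL2, CCL20 and IL6, yet it was below the 12-sample mean for IL1A and IL1B. siCEACAM6#3 replicate 2 was highest for CXCL16, IL1A and IL1B and lowest for CXCL1, CXCL2 and CCL20. NTC replicate 1 was above the 12-sample mean for 1 of the 10 genes. The range of log2 CPM over the 12 samples was widest for CXCL2 (2.49) and IL6 (2.11) and narrowest for CXCL16 (0.39).

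**Figure D4:**
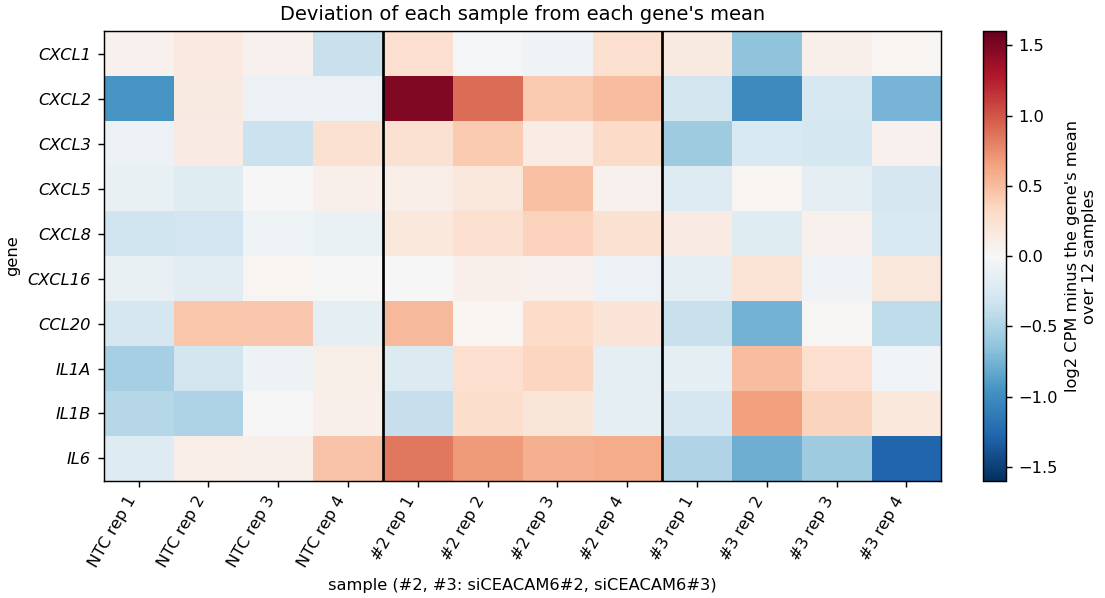
Colours give each sample's log2 CPM minus the gene's mean over the 12 samples, with genes in rows, samples in columns and lines between the groups. CXCL2 and IL6 are above their means in all siCEACAM6#2 samples and below them in all siCEACAM6#3 samples, while IL1A and IL1B are highest in siCEACAM6#3 replicate 2.

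Genes with the pattern most like CXCL2 and CXCL8 were sought by Pearson's r of log2 CPM over the 12 samples, among 15014 other genes with a mean CPM of at least 1. As a description, the 5 genes most like CXCL2 were MTMR14 (r = 0.903), ZPR1 (0.898), S100A10 (0.896), CALB2 (0.894) and C8orf33 (0.894). Of the other members of the list, IL6 came nearest to CXCL2 with r = 0.837, followed by CCL20 with 0.765 and CXCL8 with 0.695. The r with CXCL2 was -0.0178 for IL1A and -0.263 for IL1B. The 5 genes most like CXCL8 were CDKN2B (r = 0.952), TM4SF1 (0.919), CPEB2 (0.903), NCOA7 (0.896) and RPL22L1 (0.895). These samples form 3 groups of shared treatment and share their libraries between genes, so r reflects group means as well as the spread within groups.

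The other genes of these pathways were read from 6 lists with 81 genes, of which 57 were tested. With siCEACAM6#2, 4 of the 57 passed the limma-voom test, all higher, where 0.613% of all tested genes were called higher. This count depended on the fit, with 4 genes by edgeR, 7 by DESeq2, 12 with sample weights and 0 on both TPM scales. In either direction these fits called 1.44%, 3.03%, 6.36%, and 0.0284% or 0.0341% of all tested genes, beside 1.25% in the main fit. With single samples left out the count was 2 to 5, where 49 to 364 genes were called in all. The median log2 fold change of the 57 was 0.08, beside 0.00017 over all tested genes. In limma-voom 18 of the 57 had an unadjusted p under 0.05, as did 2400 of all 17620 tested genes. With siCEACAM6#3 none of the 57 passed, the median was 0.07 and 39 of 57 were above 0. In this contrast edgeR called 0 of the 57. DESeq2 called 2, beside 1.25% of all genes it tested, and 14 of the 57 had an unadjusted p under 0.05, as did 2199 of all 17620 tested genes.

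The genes that rose with siCEACAM6#2 were 1 other chemokine, 1 other cytokine and 2 feedback genes of NF-kB. CX3CL1, a membrane-bound chemokine, went from 42.1, 39.4, 44.1 and 45 CPM in NTC to 57.8, 67, 74.3 and 62.7 CPM, a log2 fold change of 0.61 (SE 0.09, limma-voom adjusted p = 0.005). IL32, a pro-inflammatory cytokine, went from 4.1, 4.67, 6.78 and 6.93 CPM to 9.09, 9.49, 10.9 and 10.3 CPM, a log2 fold change of 0.86 (SE 0.14, limma-voom adjusted p = 0.00561). In both genes all siCEACAM6#2 samples were above all NTC samples. In limma on log2(TPM + 1) neither call was kept, with log2 fold changes of 0.56 and 0.72 and adjusted p of 0.0609 and 0.0638.

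TNFAIP3, an inhibitor of NF-kB signalling that is itself induced by it, went from 5.57, 6.58, 7.6 and 8.11 CPM to 10.7, 14.6, 16 and 10.9 CPM, a log2 fold change of 0.90 (SE 0.16, limma-voom adjusted p = 0.00975). BIRC3, an inhibitor of apoptosis protein, went from 12.2, 11.6, 14.1 and 15.2 CPM to 17.6, 19.6, 24.4 and 20.1 CPM, a log2 fold change of 0.62 (SE 0.13, limma-voom adjusted p = 0.0334). The TNFAIP3 call was lost without NTC replicate 1, with a log2 fold change of 0.80 and an adjusted p of 0.0548, and on log2(TPM + 1), with 0.64 and an adjusted p of 0.0732. The BIRC3 call depended on 6 samples, since omitting any of NTC replicates 1, 2 and 3 and siCEACAM6#2 replicates 2, 3 and 4 gave an adjusted p from 0.0798 to 0.134, and it was also lost without a filter on low counts (adjusted p = 0.0501) and on log2(TPM + 1) (adjusted p = 0.345). With siCEACAM6#3 the log2 fold changes were 0.05 for CX3CL1, 0.52 for IL32, 0.64 for TNFAIP3 and 0.14 for BIRC3, and none passed the limma-voom test, with adjusted p of 0.869, 0.17, 0.138 and 0.715. TNFAIP3 did pass with siCEACAM6#3 under sample weights (adjusted p = 0.0315), the replicate block (adjusted p = 0.0408) and DESeq2 (adjusted p = 0.00932), at log2 fold changes of 0.64 to 0.66.

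Among the 16 genes of the list of NF-kB subunits and feedback, 14 had a log2 fold change above 0 with siCEACAM6#2 and 14 with siCEACAM6#3, with medians of 0.17 and 0.11. REL was the lowest with siCEACAM6#2, at -0.21 (SE 0.22). The list of AU-rich mRNA decay held 7 genes that act on the stability of cytokine mRNAs, not all in the same direction. Their medians were -0.11 and -0.13, from which no change in decay is read. ZFP36L1 was the highest of them at 0.27 (SE 0.07) and 0.15 (SE 0.07). The 7 genes of release and shedding had medians of 0.03 and 0.04. ADAM17, a sheddase, was the lowest of them with siCEACAM6#3 at -0.24 (SE 0.08), and CAPN1, a protease known to process IL1A, with siCEACAM6#2 at -0.13 (SE 0.05). None of these genes except TNFAIP3 and BIRC3 passed the test.

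The receptors of the chemokines were near 0 in these cells. CXCR2 was at 0.0833 to 0.597 TPM and CXCR1 and CCR6 were at 0 to 0.0722 TPM over all samples, ACKR1, a decoy receptor, had no count, and CXCR6 was at 0.197 to 0.616 TPM. The receptors of the interleukins were higher, with IL6R at 5.22 to 8.02 TPM, IL6ST at 4.96 to 7.14 TPM, IL1RAP at 8.14 to 14.3 TPM and IL1R1 at 0.604 to 1.27 TPM. IL1RN, an antagonist of IL1R1, was at 118 ± 9.03 TPM in NTC (SD, n = 4) over all its transcripts, beside 113 ± 19.2 TPM for IL1A. Its log2 fold change was 0.27 (SE 0.09, limma-voom adjusted p = 0.242) with siCEACAM6#3, and that of IL1R1 was -0.33 (SE 0.15, limma-voom adjusted p = 0.369) with siCEACAM6#2. None of the 8 tested genes of this list passed the test.

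Most of the other chemokines were too low to test, with 7 of 20 above the filter. CCL26, an eosinophil chemokine, was the lowest with siCEACAM6#2 at a log2 fold change of -0.71 (SE 0.22, limma-voom adjusted p = 0.139) and CCL5, a chemokine for T cells and monocytes, the highest with siCEACAM6#3 at 1.08 (SE 0.42, limma-voom adjusted p = 0.313), with 0.729 to 1.05 CPM in NTC and 1.07 to 2.9 CPM in siCEACAM6#3. The highest CCL5 value was in siCEACAM6#3 replicate 4, the sample with the highest counts of PTPRC, CD3E, LYZ and CD79A but not of CD14, CD68 and ITGAM. Without that sample the log2 fold change of CCL5 was 0.87 (SE 0.44, limma-voom adjusted p = 0.353). Of the other interleukins and cytokines 12 of 20 were tested. IL36G was the highest of those at or above a mean of 1 CPM with siCEACAM6#3, at 0.54 (SE 0.16, limma-voom adjusted p = 0.198), and IL11 the lowest at -0.36 (SE 0.17, limma-voom adjusted p = 0.407). CXCL6, a further CXCR2 ligand, was at 8.82 ± 1.28 TPM in NTC (SD, n = 4), above CXCL5 in mean level. Of the marker lists, the endothelial marker VWF was lower with siCEACAM6#2 (log2 fold change -0.44, SE 0.10, limma-voom adjusted p = 0.0419) at a level of 1.31 to 2.01 TPM in both groups, but the call was kept in only 3 of 12 fits that each left out 1 sample. Of the other endothelial markers, CDH5 was at 1.33 to 1.87 CPM in NTC and at 0.492 to 1.01 CPM with siCEACAM6#2 (limma-voom adjusted p = 0.0722), and PECAM1 had a log2 fold change of 0.61 (SE 0.34, limma-voom adjusted p = 0.462). Between the siRNAs, siCEACAM6#3 minus siCEACAM6#2, the markers past the threshold were CDH5 at 1.31 (SE 0.25, limma-voom adjusted p = 0.016) and the epithelial marker MUC1 at 0.53 (SE 0.11, limma-voom adjusted p = 0.0247). The part of these markers in the results was not tested.

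**Figure D5:**
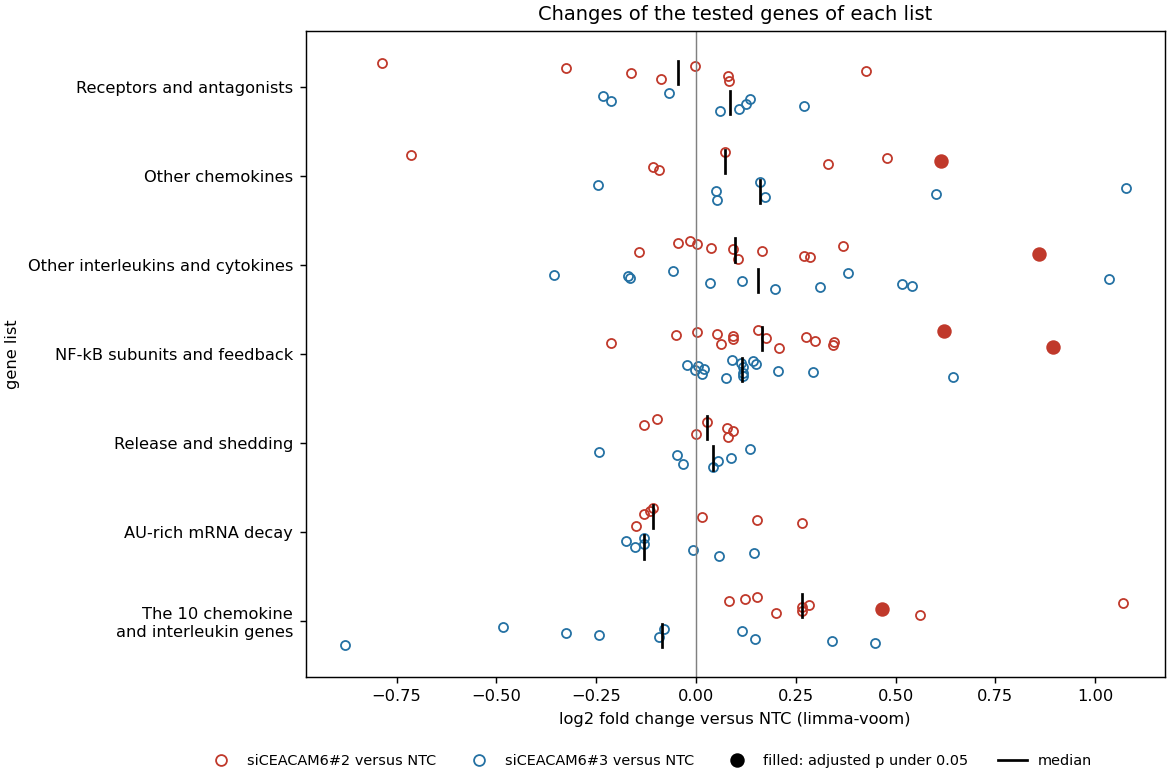
The x axis gives the log2 fold change versus NTC of each tested gene, the y axis the gene list, with filled points for an adjusted p under 0.05 and a black line for the median. With siCEACAM6#2 the filled points are CX3CL1 (0.61), IL32 (0.86), TNFAIP3 (0.90), BIRC3 (0.62) and CXCL8 (0.46), and there are none with siCEACAM6#3.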

How the data were processed

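SNU308 RNA was profiled in 12 samples. The authors deposited estimated counts per gene, made with Trim Galore 0.6.4 and kallisto on GENCODE transcripts of GRCh38, 1 file per sample, and TPM (levels scaled for length and depth), also deposited by the authors. The labels and the study's methods differ on read layout, kallisto version and transfection reagent. Of the identifiers, 99.6% matched a symbol. Of the deposited estimated counts above 0, 69.3% were not whole, and they were rounded before testing. The total count per sample was 21799476 to 22059456.

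The filter filterByExpr, applied by group, kept 17620 genes, which were fitted with limma-voom (limma 3.58.1, edgeR 4.0.16 for TMM, R 4.3.3) with 1 mean per group over the 12 samples. Calls used a Benjamini-Hochberg adjusted p under 0.05 over all tested genes of a contrast. The members and lists were chosen with earlier results of these data known. Named genes were all members, list genes called against NTC, those with the largest fold up and down in each list at a mean CPM of at least 1, the 5 genes most like CXCL2 and CXCL8, and CEACAM6. Replicates are described as individual experiments of 1 cell line. DESeq2 1.42.0, edgeR's quasi-likelihood test, other scalings, filters, TPM (pseudocounts 1 and 0.1), a replicate block and the omission of each sample were alternatives.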

Additional observations from a re-analysis of the deposited data

Results flagged for a closer look

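CXCL2 and IL6 were listed for the gap between both siRNAs. The log2 difference, siCEACAM6#3 minus siCEACAM6#2, was -1.40 for CXCL2 and -1.44 for IL6. These values are a description with no p, since CXCL2 was chosen by this contrast. CXCL2 was at 1.18 to 2.49 CPM with siCEACAM6#2 and at 0.423 to 0.732 CPM with siCEACAM6#3, and IL6 was at 1.23 to 1.49 CPM and at 0.327 to 0.582 CPM. CEACAM6 itself was at 327 ± 29.6 CPM with siCEACAM6#2 and at 417 ± 22 CPM with siCEACAM6#3 (SD, n = 4 each), and the part of this difference was not tested. In CPM no sample was flagged by Dixon's criterion (critical value 0.829) in the 30 combinations of gene and group. With 4 replicates, and an outcome that changes with the scale for CXCL1, this does not show that no sample stood apart. CXCL1 was at 10.7 CPM in siCEACAM6#3 replicate 2 and at 17 to 18.4 CPM in the rest of that group. In NTC it was at 13 CPM in replicate 4 and at 17.5 to 18.5 CPM in the rest.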

How the results depend on the processing

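With siCEACAM6#2 versus NTC, 1 of the 10 genes was called. The number was 2 with sample weights, CXCL8 and CXCL2, in a fit that called 6.36% of all tested genes, beside 1.25% in the main fit. CXCL2 was chosen with these same siCEACAM6#2 samples, so nothing is read from its call. The number was 0 on log2(TPM + 1) and 0 on log2(TPM + 0.1), where 0.0284% and 0.0341% of all tested genes were called. It was between 0 and 1 with single samples left out. With siCEACAM6#3 versus NTC it was 0 in all 23 alternatives. Among these, DESeq2 gave no adjusted p for CXCL2, CXCL3, CCL20 and IL6. Between the siRNAs, the contrast that chose CXCL2, the number supports nothing and is given for completeness. It was 2 by limma-voom, 1 with DESeq2 (CXCL8), 1 with sample weights, without a filter, at a mean CPM of at least 1 (where IL6 and CCL20 were not tested), on log2(TPM + 0.1) and with only the 2 groups compared, 0 on log2(TPM + 1), and between 1 and 3 with single samples left out. In TPM in place of CPM, an alternative chosen after seeing the data, the number of genes with all siCEACAM6#3 samples below NTC was 0 in place of 1. The number with all siCEACAM6#3 samples below siCEACAM6#2 was 4 in place of 6. With all siCEACAM6#2 samples above NTC the number stayed at 3, but the genes were CXCL2, CXCL5 and CXCL8. In TPM CXCL5 was at 3.4 to 4.04 in NTC and at 4.07 to 5.29 with siCEACAM6#2. The ranges of IL6 overlapped in TPM, at 1.22 to 2.08 in NTC and 1.99 to 2.37 with siCEACAM6#2. The cause of these shifts was not tested, except that leaving out samples leaves fewer of them.

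Signs turned only in small values. These were CCL20 with siCEACAM6#2 (-0.01 and -0.0023 on the TPM scales), CXCL1 with siCEACAM6#3 (0.02 with sample weights, from -0.19 to 0.10 without single samples) and CX3CL1 with siCEACAM6#3 (from -0.05 to 0.12 without single samples). Between the siRNAs they were CXCL16 (-0.02 with sample weights, from -0.03 to 0.10 without single samples) and IL1A (from -0.04 to 0.18 without single samples).

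Pairing of the samples by replicate number was not clear. Of 12 same-numbered pairs, 2 had deviations correlated above 0.1 (range -0.0543 to 0.184). Of 24 searches for the best partner (each sample against each other group), 6 found the same number. With the replicate block, limma-voom called 1, 0 and 3 of the 10 genes in the 3 contrasts. It called 284, 87 and 349 genes in all, beside 221, 12 and 259 without the block. These checks do not decide whether the replicates were paired.

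Over all genes the counts moved more. For siCEACAM6#2 versus NTC, 221 genes became 534 with DESeq2, 1120 with sample weights, 600 with only the 2 groups and 5 or 6 on the TPM scales. For siCEACAM6#3 versus NTC, 12 became 220, 382, 10 and 4. Between the siRNAs, 259 became 556, 560, 57 and 49 or 53. Without single samples the ranges were 49 to 364, 2 to 258 and 83 to 651. At the counts of CXCL2, CXCL3, CCL20 and IL6, under 60 a sample, counting error limits what could be detected.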
